A study of Homo sapiens with 16 samples.

Results

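Chromosome 19 held 3960 MACS peaks and 2716 high confidence peaks of the ETS factors ERG and GABPα in the 10 ChIP-seq samples, which is 6676 of the 194407 peaks in the series. The members were all peaks of both kinds on chromosome 19 in hg18 coordinates, except those that start between 56 and 56.3 Mb, the kallikrein cluster. MACS peaks were called by the program MACS, and high confidence peaks were found by both MACS and a second caller, SWEMBL. VCaP cells, a human prostate cancer (PC) line that carries a fusion of TMPRSS2 to ERG, gave 1 sample for each factor at t0, with vehicle (ethanol) and with 1 nM of the synthetic androgen R1881 (methyltrienolone). The vehicle and R1881 cells had first been kept for 48 h in charcoal-stripped serum, and the labels do not explain t0. Jurkat cells, which derive from a human T-cell leukaemia and had no stated treatment, provided 2 replicates for each factor. No genetic change to either line is stated, so the factors are the cells' own, the product of the fusion included, and no knockdown checks the antibodies.

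ETS factors share a DNA-binding domain that recognises sites with a GGAA core. GABPα pairs with GABPβ and is known for binding close to the start sites of widely expressed genes, many of them with roles in mitochondria and translation. ERG is a factor of endothelial and blood cells that many prostate tumours express from an androgen-driven fusion gene, and it is known for binding away from gene starts. Chromosome 19 is a small, gene-dense and GC-rich chromosome, and its long arm carries large clusters of zinc finger genes.

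Some features of the files bear on every value that follows. The files give no read numbers, which leaves library depth unknown, so numbers of peaks were compared as shares within a sample. The autosomal MACS sets ranged from 6860 to 23399 peaks. The ERG sample at t0 stood apart, since its high confidence set held 2 peaks in all and none among the members, so it entered the MACS comparisons alone. For the ERG antibody, the catalogue number in the labels is not the one in the study's methods, and the samples are called ERG here because the labels do so. Vehicle and R1881 samples of a factor were called against the same input, as were both Jurkat replicates of a factor. The files hold no gene names, and genes were not assigned to peaks because no hg18 annotation was used here.

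Beside the excluded window, the GABPα peak of R1881-treated VCaP cells spanned 56302911 to 56304071 and scored 1672.4. The closest ERG peak with R1881 on the other side ran from 55985817 to 55991322 and scored 314.1. The window itself removed 34 MACS peaks and 21 high confidence peaks. A further 20 MACS peaks on unplaced pieces of chromosome 19 were not counted.

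GABPα placed a several-fold larger share of its peaks on chromosome 19 than ERG did. Of the high confidence GABPα peaks on autosomes, 11.5% were on chromosome 19 in VCaP cells at t0 (320 of 2784, 95% Wilson interval 10.4 to 12.7%). The share was 9.81% with vehicle (605 of 6169, 9.09 to 10.6%) and 9.66% with R1881 (558 of 5778, 8.92 to 10.5%). In Jurkat cells it was 7.07% in replicate 1 (563 of 7960, 6.53 to 7.66%) and 6.02% in replicate 2 (567 of 9413, 5.56 to 6.52%). All 5 GABPα samples lay far above the 2.10% of autosomal 1 Mb bins that chromosome 19 provided, namely 57 of the 2718 bins with a MACS peak in any sample.

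The ERG shares lay close to or below that reference. In VCaP cells the high confidence ERG share was 2.07% with vehicle (15 of 725, 1.26 to 3.39%) and 2.11% with R1881 (46 of 2176, 1.59 to 2.81%). In Jurkat cells it was 1.31% in replicate 1 (14 of 1069, 0.782 to 2.19%) and 1.61% in replicate 2 (28 of 1739, 1.12 to 2.32%). These intervals cover counting error over peaks, not the spread between cultures. The lowest GABPα share was above the highest ERG share, and the factors did not overlap in either cell line.

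The mean high confidence share in VCaP cells was 10.3% ± 1.02 for GABPα (SD, n = 3) and 2.09% ± 0.0318 for ERG (n = 2). In Jurkat cells the means were 6.55% ± 0.742 for GABPα (n = 2) and 1.46% ± 0.213 for ERG (n = 2). Averaged over the lines, the difference was 6.66 percentage points (exact permutation test within cell line, two-sided, p = 0.01667, the smallest that the design allows, and 0.03889 after Benjamini-Hochberg adjustment over 14 tests). Without the GABPα sample at t0, with vehicle or with R1881, the difference was 6.37, 6.79 or 6.82 points and the smallest possible p became 0.05556, which the test returned. With GABPα and ERG samples of the same condition paired as a block, it was 6.365 points over 4 pairs (exact sign-flip permutation p = 0.125, the smallest that 4 pairs allow). The 3 VCaP samples of a factor came from different treatments, so they measure the spread over treatments.

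MACS peaks showed the same order at a lower level. GABPα had 4.53% of its MACS peaks on chromosome 19 at t0 (423 of 9334), 5.72% with vehicle (786 of 13739) and 5.43% with R1881 (791 of 14565). The Jurkat replicates gave 3.05% (635 of 20807) and 2.86% (614 of 21440). ERG was lower in every condition. It had 1.49% at t0 (102 of 6860), 0.836% with vehicle (159 of 19026) and 0.872% with R1881 (204 of 23399) in VCaP cells. Its Jurkat replicates gave 0.879% (62 of 7053) and 1.24% (184 of 14847). Every GABPα share was above 2.10% and every ERG share below it. The difference averaged over the lines was 3.03 percentage points (exact permutation test, p = 0.01667, the smallest possible, adjusted p = 0.03889). Paired by condition it was 3.257 points over 5 pairs (exact sign-flip permutation p = 0.0625, the smallest that 5 pairs allow).

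**Figure D1:**
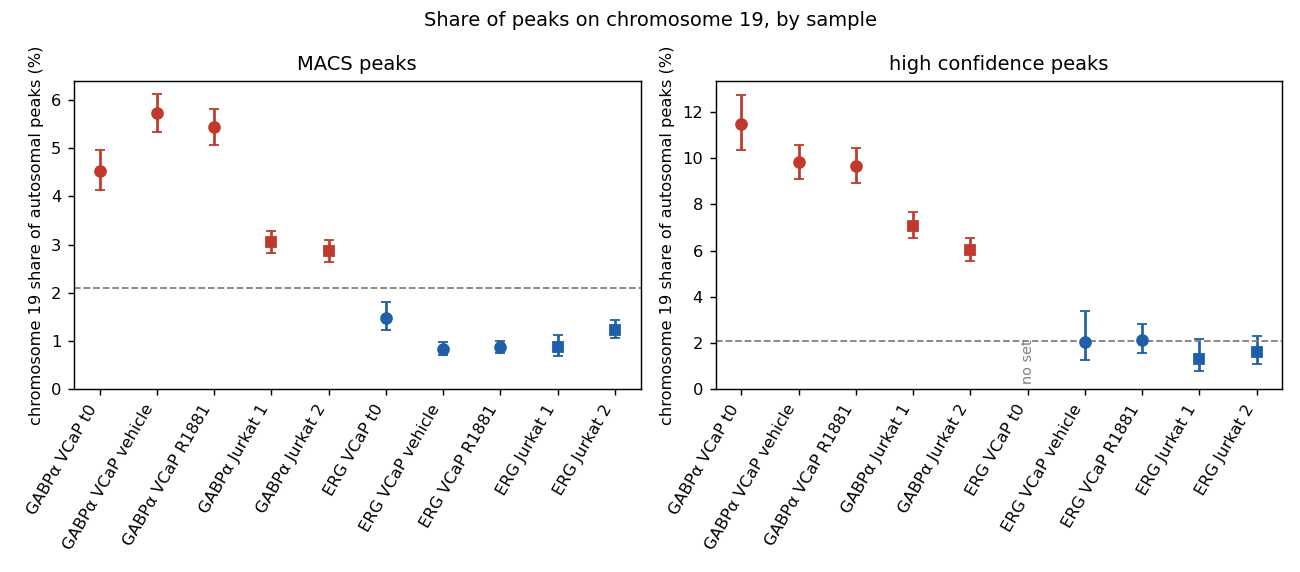
Chromosome 19 share of autosomal peaks (%) in each sample, for MACS peaks and high confidence peaks, with 95% Wilson intervals over peaks (circles, VCaP; squares, Jurkat; red, GABPα; blue, ERG). The dashed line is the 2.10% of autosomal bins that lie on chromosome 19, and all red points are above it in both panels. ERG at t0 had no high confidence set.

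Against the other autosomes, GABPα peaks were densest on chromosome 19. In VCaP cells there were 5.61 high confidence GABPα peaks per 1 Mb bin of chromosome 19 at t0 against 0.926 on the other 21 autosomes. With vehicle the densities were 10.6 and 2.09, and with R1881 they were 9.79 and 1.96. Jurkat replicate 1 had 9.88 against 2.78 and replicate 2 had 9.95 against 3.32. Chromosome 19 ranked first of 22 autosomes in all 5 samples. The runner-up was chromosome 17 in VCaP cells, at 2.08, 4.71 and 4.30 peaks per bin, and chromosome 22 in Jurkat cells, at 5.64 and 6.06.

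For ERG, chromosome 19 was the sparsest autosome in MACS peaks in 4 of 5 samples and ranked 15 at t0. The densities were 1.79 per bin against 2.54 on the other autosomes at t0, 2.79 against 7.09 with vehicle and 3.58 against 8.72 with R1881. In Jurkat cells they were 1.09 against 2.63 and 3.23 against 5.51. High confidence ERG peaks were not sparse to this extent. Their density was 0.263 against 0.267 with vehicle, 0.807 against 0.801 with R1881, and 0.246 against 0.397 and 0.491 against 0.643 in the Jurkat replicates, with ranks of 12, 8, 20 and 18.

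Pooled over both factors, the ratio to the other autosomes did not pass the test. Its mean log2 was 1.06 for high confidence peaks (exact sign-flip permutation test, n = 9, p = 0.05859, adjusted p = 0.1172, above 0 in 6 of 9 samples). For MACS peaks it was -0.01 (n = 10, p = 0.9805, above 0 in 5 of 10). With the factors taken separately, a split made after the values were seen, GABPα had a mean ratio of 4.39-fold for high confidence peaks and 2.02-fold for MACS peaks. Both ratios were above 1 in 5 of 5 samples (exact sign-flip permutation test, p = 0.0625, the smallest that 5 samples allow). ERG had 0.488-fold for MACS peaks, below 1 in 5 of 5 samples (exact permutation p = 0.0625), and 0.828-fold for high confidence peaks, below 1 in 3 of 4 (p = 0.25). SWEMBL peaks turned the last direction, with ERG ratios of 1.029 to 1.198, above 1 in all 4 samples. The GABPα ratio with SWEMBL peaks was 3.12 to 5.98. Every high confidence interval of GABPα is itself a SWEMBL interval, so these 2 sets are not independent.

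Chromosome 21 was the densest autosome for ERG MACS peaks in all 5 samples, at 6.69 per bin at t0, 19.6 with vehicle, 22.4 with R1881, and 4.64 and 7.06 in the Jurkat replicates. For GABPα it was the densest in MACS peaks at t0, at 9.25 per bin. DNA copy number of the lines was not measured in these files, and its part in the densities was not tested. Jurkat and VCaP cells both had chromosome 19 first for GABPα high confidence peaks.

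**Figure D2:**
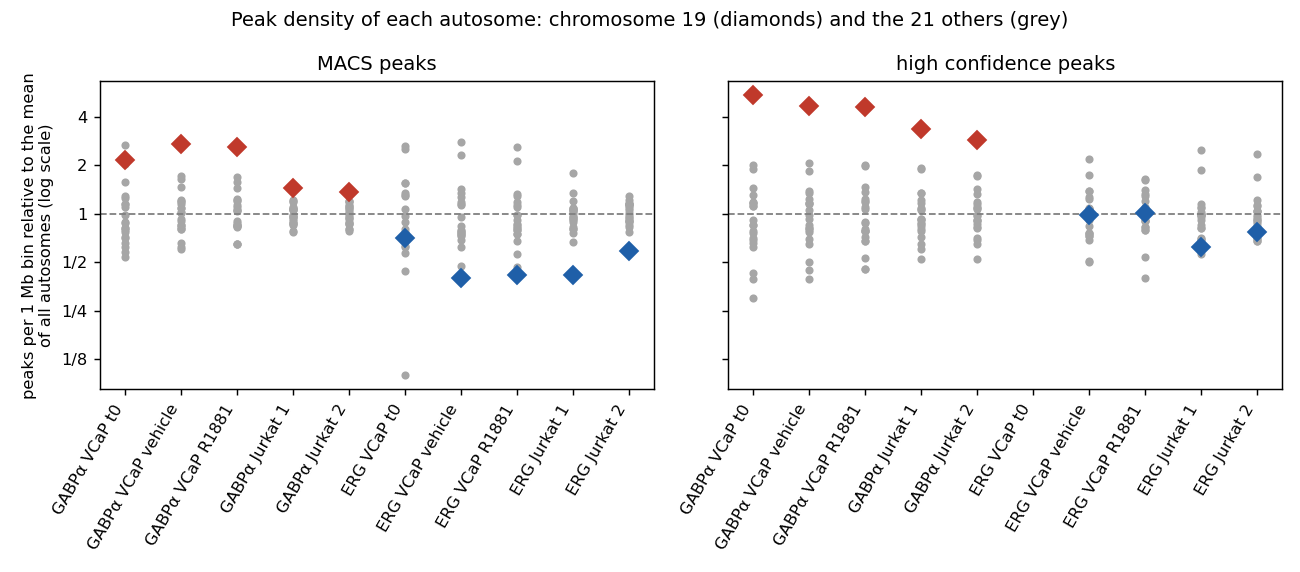
Peaks per 1 Mb bin of each autosome, divided by the sample's mean over all autosomes (log scale), for MACS and high confidence peaks. Coloured diamonds are chromosome 19 (red, GABPα; blue, ERG) and grey points the other 21 autosomes. The red diamonds are on top in every sample except GABPα at t0 in the MACS panel, where chromosome 21 is higher, and the blue ones lie at the bottom of the MACS panel except at t0.

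VCaP and Jurkat cells differed in the high confidence share, mostly through GABPα. The 3 VCaP samples of GABPα held 9.66 to 11.5% of these peaks on chromosome 19 and the Jurkat samples held 6.02 and 7.07%, so the lines did not overlap. The difference was 3.77 points for GABPα (exact permutation p = 0.1, the smallest possible with 3 against 2) and 0.632 points for ERG (p = 0.3333, the smallest possible with 2 against 2). Over both factors the mean difference was 2.20 points (exact permutation test within factor, p = 0.01667, the smallest possible, adjusted p = 0.03889). With SWEMBL peaks it was 1.63 points and p rose to 0.1. Without GABPα at t0, with vehicle or with R1881 it was 1.91, 2.33 or 2.37 points (exact permutation p = 0.05556 in each case, the smallest then possible).

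For MACS peaks the lines differed by 1.14 points over both factors (exact permutation p = 0.09, adjusted p = 0.14). This was 2.27 points for GABPα (p = 0.1, the smallest possible) and 0.00562 points for ERG (exact permutation p = 1). The gap between GABPα and ERG in the same condition was 3.05 points at t0, 4.89 with vehicle, 4.56 with R1881, and 2.17 and 1.62 in the Jurkat replicates. The mean gap was 2.26 points larger in VCaP cells, which 5 gaps could not test below 0.1 (exact permutation p = 0.2).

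Between treatments there was 1 sample each, so no test was possible, and the intervals cover counting error over peaks alone. For GABPα in VCaP cells the intervals of the MACS share were 4.13 to 4.97% at t0, 5.35 to 6.12% with vehicle and 5.07 to 5.81% with R1881. In high confidence peaks the order was another one, since the t0 share, 10.4 to 12.7%, was the highest of the 3, beside 9.09 to 10.6% with vehicle and 8.92 to 10.5% with R1881. For ERG the intervals of the MACS share were 1.23 to 1.80% at t0, 0.716 to 0.975% with vehicle and 0.761 to 0.999% with R1881. The t0 sets were also the smallest of their factor in VCaP cells, and the part of depth in these values was not tested.

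GABPα peaks on chromosome 19 scored higher than those elsewhere. This score is 10 times the −log10 of the p-value that MACS gave the peak, and no peak in the files scored under 50. The median GABPα score was 449.6 on chromosome 19 and 69.4 on the other autosomes at t0, 456.3 and 131.8 with vehicle, and 461.4 and 119.7 with R1881. It was 219.3 and 111.0 in Jurkat replicate 1 and 226.0 and 101.4 in replicate 2. For ERG the medians lay close together. They were 56.5 and 57.5 at t0, 72.0 and 68.6 with vehicle, and 95.2 and 77.2 with R1881. The Jurkat ERG medians were 69.7 and 64.2 in replicate 1 and 78.3 and 69.4 in replicate 2. Over 10 samples the mean log2 ratio of medians was 0.92, above 0 in 9 (exact sign-flip permutation test, p = 0.003906, adjusted p = 0.01823). It was 1.71 for GABPα, above 0 in 5 of 5, and 0.13 for ERG, above 0 in 4 of 5. At that number of samples the smallest possible p is 0.0625.

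The share of GABPα peaks that lay on chromosome 19 rose with the score at every step in all 5 samples. With vehicle it was 2.81% of the peaks that scored 50 to 100, 4.73% of those from 100 to 200, 6.27% from 200 to 400, and 9.99% at 400 and over. At t0 it went from 1.35% in the lowest band to 11.5% in the highest, and with R1881 from 2.47 to 10.1%. The Jurkat samples went from 1.74 to 6.12% and from 1.57 to 6.44%. In the lowest band the GABPα shares of t0 and of both Jurkat samples were under the 2.10% of bins. ERG shares stayed between 0.508 and 1.97% in all bands with at least 100 autosomal peaks, and rose at every step in none of the 5 samples. Scores of 3100 or more were given to 50 of 791 chromosome 19 peaks of GABPα with R1881 (6.32%) against 2.02% elsewhere, and to no ERG member.

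**Figure D3:**
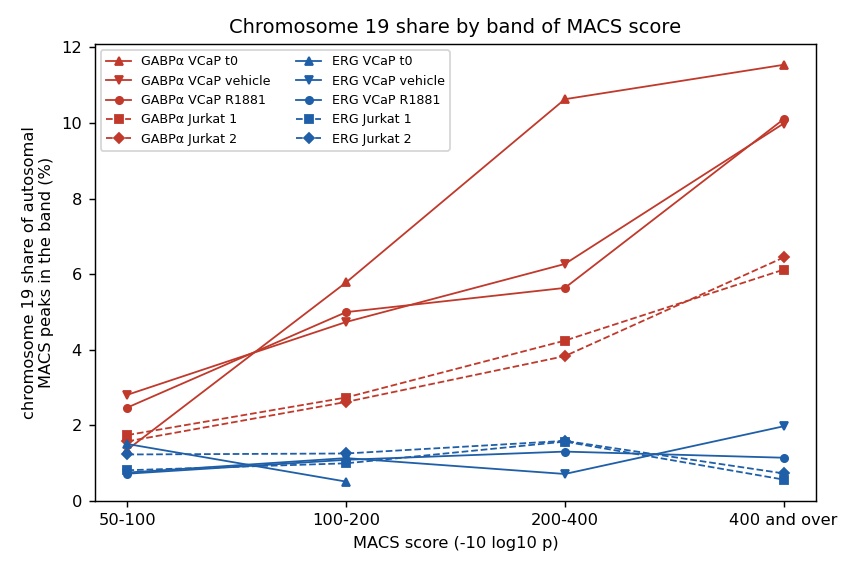
Chromosome 19 share of the autosomal MACS peaks (%) within 4 bands of MACS score, 1 line per sample (red, GABPα; blue, ERG; solid, VCaP; dashed, Jurkat). Bands with fewer than 100 autosomal peaks are not drawn. Red lines climb to 6.12 to 11.5% in the highest band and blue lines stay under 2%.

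Members were wider and more often kept at high confidence. The median width of a GABPα MACS peak was 831 bp on chromosome 19 and 618 bp elsewhere at t0, 1000 and 741 bp with vehicle, and 1006 and 723 bp with R1881. It was 918 and 673 bp and 827 and 630.5 bp in the Jurkat replicates. ERG peaks were narrower than GABPα peaks in the same condition. They had medians of 162.5 and 163 bp at t0, 419 and 351 bp with vehicle, and 547.5 and 485 bp with R1881. The Jurkat ERG medians were 230 and 166 bp in replicate 1 and 574.5 and 531 bp in replicate 2. The mean log2 ratio over the 10 samples was 0.32, above 0 in 9 (exact sign-flip permutation p = 0.003906, adjusted p = 0.01823).

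At high confidence, 297 of 423 chromosome 19 GABPα peaks were kept at t0 (70.2%), where 27.9% of all autosomal MACS peaks were kept. With vehicle this was 515 of 786 (65.5%) where all autosomes gave 39.8%, and with R1881 469 of 791 (59.3%) where they gave 34.7%. In Jurkat cells 448 of 635 (70.6%) and 457 of 614 (74.4%) were kept, where all autosomes gave 32.6% and 38.1%. ERG peaks were kept less often throughout. The counts were 15 of 159 with vehicle (9.43%) where all autosomes gave 3.81%, and 36 of 204 with R1881 (17.6%) where they gave 8.54%. The Jurkat ERG samples kept 14 of 62 (22.6%) and 27 of 184 (14.7%), where all autosomes gave 15.2% and 10.1%. The mean difference from the other autosomes was 22.4 points, above 0 in 9 of 9 samples (exact sign-flip permutation p = 0.003906, the smallest possible, adjusted p = 0.01823).

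Within bands of score under 400, the difference in retention of GABPα peaks was larger in Jurkat than in VCaP samples. Among GABPα peaks that scored 50 to 100, 30.1% of the chromosome 19 peaks were kept in replicate 1 and 29.7% in replicate 2, against 7.03% and 8.33% elsewhere. From 200 to 400 the shares were 90.5% and 96.5% against 55.3% and 77.7%. In VCaP cells the peaks that scored 50 to 100 were kept at 5% against 0.618% at t0, 3.82% against 2.28% with vehicle and 1.29% against 1.23% with R1881. From 100 to 200 the VCaP shares were 42.6% against 18.15%, 24.3% against 13.6% and 16.1% against 10.5%. From 200 to 400 they were 73.9% against 69.3% at t0 and 67.0% against 55.7% with vehicle, but 42.6% against 43.1% with R1881. At 400 and over the VCaP shares were 97.8% against 99.2%, 99.5% against 98.0% and 97.4% against 96.5%. The Jurkat shares were then 99% against 94.4% and 100% against 99.1%. ERG differences went both ways. From 200 to 400 they were 71.4% of 7 peaks against 83.0% in Jurkat replicate 1, and 60% of 30 against 30.5% with R1881. The GABPα bands under 400 hold 47 to 157 chromosome 19 peaks of a VCaP sample, and none of the differences within bands has a test. In 7 samples (all GABPα samples, ERG with R1881 and ERG in Jurkat replicate 2) every high confidence interval was a SWEMBL interval. Several of these can lie in 1 MACS peak. In the 3 other ERG samples (t0, vehicle and Jurkat replicate 1) the high confidence intervals were mostly whole MACS peaks, so the unit differs between samples. With whole MACS peaks throughout, the GABPα shares on chromosome 19 were 11.4, 9.42, 9.27, 6.61 and 5.59%. The ERG shares were then 2.07% with vehicle, 1.80% with R1881, and 1.31% and 1.80% in the Jurkat replicates.

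Neighbouring GABPα peaks were closely spaced. The distances were taken between the midpoints of successive MACS peaks that were kept at high confidence. For GABPα the median on chromosome 19 was 75.5 kb at t0, 49.3 kb with vehicle, 56.8 kb with R1881, and 64.8 and 64.0 kb in Jurkat cells. On the other autosomes the medians were 362.3, 175.2, 190.2, 163.0 and 132.7 kb. For ERG the distance was 1840 kb on chromosome 19 and 1870 kb elsewhere with vehicle, and 610.3 and 649.5 kb with R1881. In the Jurkat ERG replicates it was wider on chromosome 19, at 3559 kb against 918.9 kb and 1362 kb against 759.8 kb. These ERG medians rest on 14 to 36 chromosome 19 peaks per sample. Whole MACS peaks were used here, so high confidence intervals that lie in the same MACS peak do not count as neighbours.

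GABPα peaks were spread over almost the whole chromosome. High confidence GABPα peaks were found in 91.2% of the 57 bins at t0, 98.2% with vehicle, 96.5% with R1881 and 98.2% in each Jurkat replicate. Over all autosomes these shares of bins were 43.2, 62.3, 61.5, 72 and 76.3%. ERG MACS peaks were found in 68.4% of the chromosome 19 bins at t0, 73.7% with vehicle and 84.2% with R1881, where all autosomes gave 75.3, 92.5 and 95.4%. In the Jurkat replicates they were found in 49.1% and 86.0%, where all autosomes gave 74.7 and 86.4%. Of the 50 autosomal bins with most high confidence GABPα peaks, chromosome 19 provided 16 at t0, 17 with vehicle, 15 with R1881, and 11 and 10 in Jurkat cells. By GABPα MACS peaks it provided 4 at t0, 17 with vehicle and 18 with R1881, but 0 and 1 in the Jurkat replicates. Of the 50 bins with most high confidence ERG peaks, chromosome 19 provided 3 with R1881 and none with vehicle or in Jurkat cells.

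A bin was said to lean to GABPα where every GABPα sample of a line had more MACS peaks per 1000 of its own autosomal peaks than every ERG sample of the line. In VCaP cells 47 of the 57 bins (82.5%) leaned to GABPα where 19.6% of all autosomal bins did, and 2 leaned to ERG where 15.5% did. In Jurkat cells 46 bins (80.7%) leaned to GABPα where 31.5% of all bins did, and 3 leaned to ERG where 18.8% did. The 42 bins that leaned to GABPα in both lines were 73.7% of the chromosome's bins, where 10.9% of all autosomal bins did so, and 1 bin leaned to ERG in both where 3.5% did.

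The fullest GABPα bins all started at 49 Mb or beyond. With R1881 the bin from 63 to 64 Mb held 34 high confidence GABPα peaks, that from 49 to 50 Mb held 27 and that from 62 to 63 Mb held 25. The same bins held 37, 28 and 24 with vehicle and 29, 21 and 21 at t0. In Jurkat cells the bin from 63 to 64 Mb held 27 and 25, the bin from 60 to 61 Mb 24 and 28, and the bin from 54 to 55 Mb 23 and 25 in the 2 replicates. The bin from 49 to 50 Mb was fuller in VCaP cells, with 11 and 12 in Jurkat cells.

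ERG peaks used other bins. With R1881 the fullest held 8 high confidence ERG peaks (55 to 56 Mb), 6 (15 to 16 Mb) and 6 (52 to 53 Mb), and with vehicle these bins held 1, 2 and 1. In ERG MACS peaks with R1881 the same bins held 4, 7 and 8. High confidence peaks of this sample are SWEMBL intervals, and several can lie in 1 MACS peak. The 8 intervals lay in the regions from 55373254 to 55374502 and from 55985817 to 55991322, the latter 5506 bp long and next to the excluded window. In Jurkat cells the bin from 56 to 57 Mb led with 3 and 4 high confidence ERG peaks, a bin that held no high confidence ERG peak in VCaP cells outside the excluded window. The 63 to 64 Mb bin, fullest for GABPα, held no high confidence ERG peak in VCaP cells and 1 in each Jurkat replicate.

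Over the 57 bins, GABPα high confidence counts of Jurkat replicates 1 and 2 correlated at r = 0.94, those of vehicle and R1881 at r = 0.98, and those of R1881 and Jurkat replicate 1 at r = 0.75. ERG counts gave r = 0.68 between the Jurkat replicates, 0.61 between vehicle and R1881 and -0.07 between R1881 and Jurkat replicate 2. GABPα and ERG counts with R1881 gave r = 0.09. These correlations are descriptions over neighbouring bins of 1 chromosome, which share sequence content and input, and the ERG counts per bin were mostly 0.

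**Figure D4:**
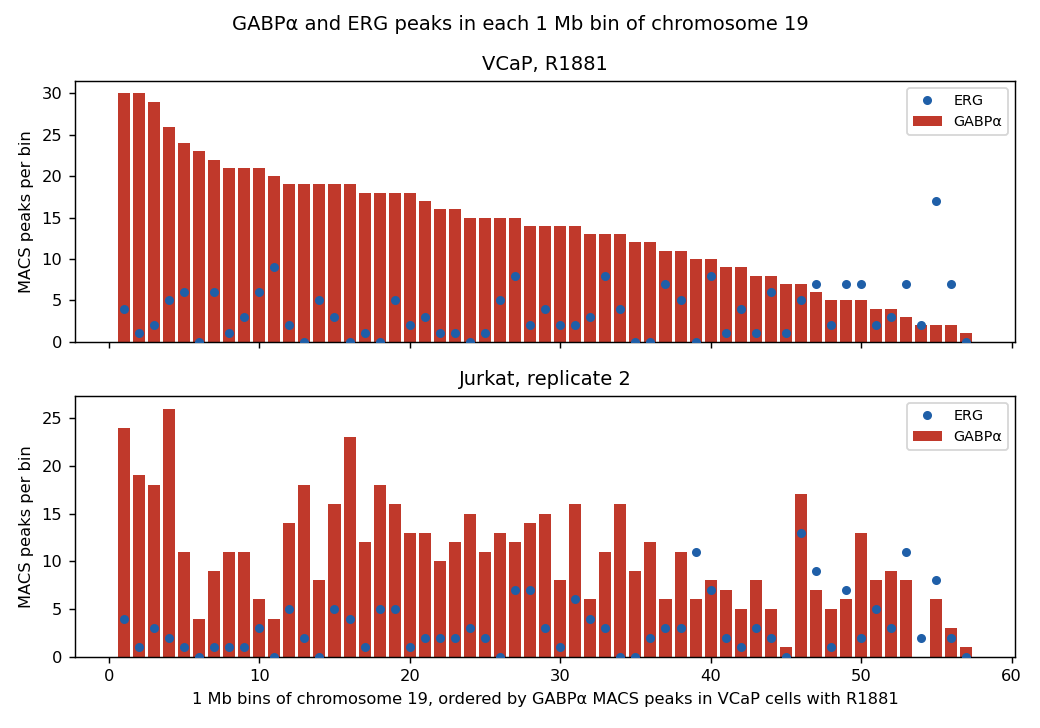
MACS peaks in each of the 57 bins of 1 Mb on chromosome 19 for GABPα (red bars) and ERG (blue points), in VCaP cells with R1881 and in Jurkat replicate 2. Bins are ordered in both panels by the GABPα count with R1881, and the points lie under the bars in most bins.

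Merging the MACS peaks of all samples gave 1649 regions on chromosome 19. GABPα alone had a peak in 1084 of them (65.7%), ERG alone in 411 (24.9%) and both factors in 154 (9.34%). On the other autosomes these shares were 36.8%, 50.6% and 12.6%. Among the 775 chromosome 19 regions with a high confidence peak, 705 had GABPα alone (91.0%), 51 ERG alone (6.58%) and 19 both (2.45%), against 72.3%, 21.9% and 5.71% elsewhere.

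The GABPα regions of chromosome 19 recurred across samples. Of the 1238 regions with a GABPα MACS peak in any sample, 247 (19.9%, interval 17.8 to 22.3%) had one in all 5, where 4.97% of all autosomal GABPα regions did. Regions with a peak in 1 sample made up 24.4% on chromosome 19 and 52.5% elsewhere. Of the 565 ERG regions, 441 (78.1%) were found in 1 sample against 80.2% elsewhere. None was found in all 5, where 0.0279% of all autosomal ERG regions were, and 0 of 565 allows a share of up to 0.531%, taking 3 counts as the limit that a count of 0 allows, here and for each later count of 0.

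**Figure D5:**
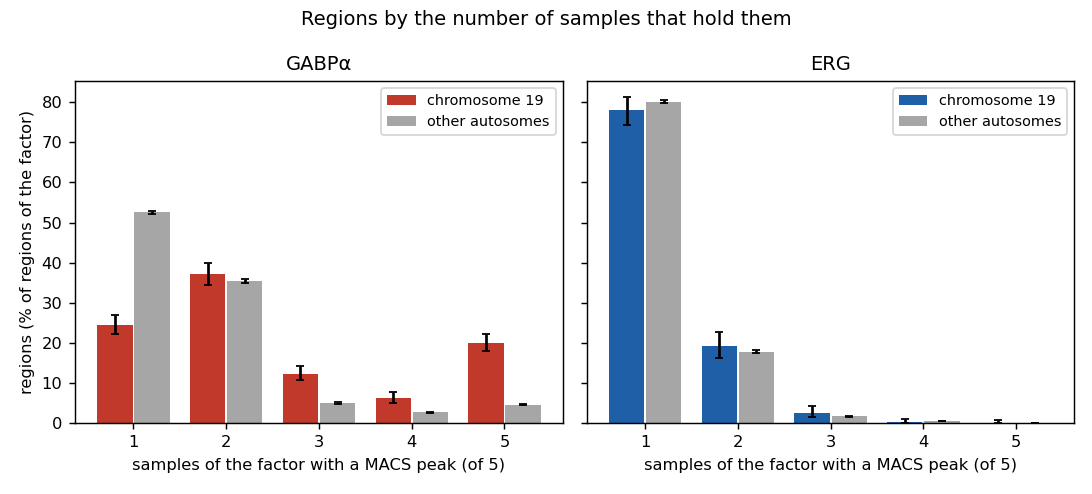
Share of merged regions (%) by the number of samples of the factor, of 5, that had a MACS peak there, on chromosome 19 (coloured) and on the other autosomes (grey), with 95% Wilson intervals over regions. For GABPα the bar at 5 samples is 19.9% on chromosome 19 and 4.56% elsewhere, and for ERG the bars of both kinds nearly coincide.

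Between vehicle and R1881 most GABPα high confidence peaks on chromosome 19 recurred. Of those with vehicle 530 of 605 (87.6%) overlapped one with R1881, where 84% of all autosomal peaks did, and 536 of 558 (96.1%) in the other direction where 91.2% did. All 320 peaks at t0 were found with vehicle (100%) where 99.6% of all were, and 312 of the 605 vehicle peaks (51.6%) recurred at t0 where 43.2% of all did. In MACS peaks the chromosome stood further apart, with 401 of 423 peaks at t0 found with vehicle (94.8%) where all autosomes gave 48.2%. The Jurkat replicates shared 487 of 563 (86.5%) and 493 of 567 (86.9%), where all autosomes gave 86.3% and 72.9%.

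Between cell lines, GABPα peaks on chromosome 19 were shared more often than elsewhere, and no high confidence ERG peak was. Of the R1881 GABPα peaks 312 of 558 (55.9%, interval 51.8 to 59.98%) were found in Jurkat replicate 1 and 315 (56.5%) in replicate 2, where all autosomes gave 48.2% and 48.9%. Of the Jurkat peaks 329 of 563 (58.4%) and 333 of 567 (58.7%) were found with R1881, where all autosomes gave 36.5% and 31.5%. None of the 46 ERG peaks with R1881 was found in either Jurkat replicate, where 2.8% and 2.85% of all such peaks were. None of the 14 and 28 Jurkat ERG peaks was found with R1881 either, where 4.4% and 3.45% were. A count of 0 in 46 allows a share of up to 6.52%, and 0 of 14 and 0 of 28 allow 21.4% and 10.7%, so a difference from the rest of the genome was not detectable with so few peaks.

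ERG peaks shared between samples of a line were few. With vehicle 11 of 15 (73.3%) overlapped an ERG peak with R1881 where 59% of all did, and 20 of 46 (43.5%, interval 30.2 to 57.8%) in the other direction where 22.9% did. Counted as whole MACS peaks, the R1881 peaks gave 11 of 36 (30.6%), with no value computed for all autosomes. Jurkat replicate 1 shared 11 of 14 (78.6%) and replicate 2 11 of 28 (39.3%), where all autosomes gave 71.2% and 49.2%.

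Most high confidence ERG peaks on chromosome 19 did not overlap a high confidence GABPα peak of the same condition. Overlap was found for 3 of 15 (20%) with vehicle, 4 of 46 (8.70%) with R1881, 2 of 14 (14.3%) in Jurkat replicate 1 and 9 of 28 (32.1%) in replicate 2. All autosomes gave 10.5%, 9.15%, 18% and 25.8%, and each of these lay within the chromosome's interval. With any GABPα MACS peak counted, the overlaps were 8 of 15 (53.3%) and 24 of 46 (52.2%) in VCaP cells, where all autosomes gave 46.2% and 49.3%. In Jurkat replicate 1 the overlap was 4 of 14 (28.6%, interval 11.7 to 54.65%), where the 60.2% of all autosomes lay above the interval, and in replicate 2 it was 15 of 28 (53.6%), where they gave 59.7%. With each set reduced to its 1000 highest scores, 0 of 15, 0 of 15, 0 of 10 and 0 of 15 ERG peaks on chromosome 19 overlapped a GABPα peak, which allows shares of up to 20% (n = 15) and 30% (n = 10). No share over all autosomes was computed for these reduced sets, so their counts of 0 cannot be compared with the other autosomes.

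With vehicle and with R1881, ERG MACS peaks in VCaP cells overlapped GABPα MACS peaks more often on chromosome 19 than elsewhere. These were 41 of 159 with vehicle (25.8%, interval 19.6 to 33.1%) where all autosomes gave 13.2%, and 58 of 204 with R1881 (28.4%, interval 22.7 to 35.0%) where they gave 16.3%. At t0 the overlap was 3 of 102 (2.94%, interval 1.0 to 8.3%), and the 2.50% of the other autosomes lay within that interval. In Jurkat cells the counts were 20 of 62 (32.3%) and 52 of 184 (28.3%), where all autosomes gave 33.7% and 27.7%. The density of GABPα peaks around them was higher on chromosome 19 as well, and its part in the overlap was not tested.

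Seen from GABPα, overlap with ERG was rarer on chromosome 19 with vehicle, with R1881 and in Jurkat cells. High confidence GABPα peaks overlapped a high confidence ERG peak in 3 of 605 with vehicle and 4 of 558 with R1881, where all autosomes gave 1.3% and 3.39%. The vehicle interval, 0.169 to 1.45%, holds the 1.3% of all autosomes. The Jurkat counts were 2 of 563 and 10 of 567, where all autosomes gave 2.64% and 4.77%. With any ERG MACS peak counted, the shares were 14 of 605 (2.31%, interval 1.38 to 3.85%) and 10 of 558 (1.79%, 0.976 to 3.27%) in VCaP cells, where all autosomes gave 6.87% and 8.88%. In Jurkat cells they were 11 of 563 (1.95%, 1.09 to 3.46%) and 27 of 567 (4.76%, 3.29 to 6.84%), where all autosomes gave 7.91% and 18.6%. With any ERG MACS peak counted, the intervals of these 4 conditions lay below the value of the other autosomes. At t0 the share was 1 of 320 (0.313%, interval 0.0552 to 1.75%), and the 0.649% of the other autosomes lay within that interval. All these shares are taken over GABPα peaks, which were denser on chromosome 19, and the part of that density was not tested.

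High confidence ERG peaks fell in 70 merged regions of chromosome 19, 40 from VCaP cells and 30 from Jurkat cells. No region held them in both lines, which allows a share of up to 4.29%, where 1.48% of all autosomal regions of this kind did. Of the 40 VCaP regions, 24 (60%) also had a GABPα MACS peak in VCaP cells where 52.9% of all autosomal ones did, and 9 (22.5%, interval 12.3 to 37.5%) a high confidence one where 11.4% did. No GABPα peak was called in either line in 15 (37.5%), where all autosomes gave 44.4%. Of the 30 Jurkat regions, 16 had a GABPα MACS peak in Jurkat cells and 10 a high confidence one, where all autosomes gave 64.2% and 30.7%, and 14 had none in either line, where all autosomes gave 35.1%. Except for the 11.4%, the value of all autosomes lay within the interval of the chromosome in each of these counts. In 1 Jurkat region an ERG MACS peak was also called in VCaP cells.

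The 4 regions with the highest ERG scores with R1881, which are named for that score, had no ERG peak at t0 or in Jurkat cells. The region from 15466827 to 15467532 scored 2449.44 with R1881 and 1161.5 with vehicle, where GABPα scored 213.04 and 170.06. The region from 15582281 to 15583118 scored 1081.25 and 412.54 for ERG, and that from 12297399 to 12297976 scored 721.3 and 188.24. The fourth, from 15566898 to 15567438, scored 713.42 and 88.82 and had no GABPα peak. Scores of different samples also move with the number of reads, which is unknown, so none of these differences has a test.

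The R1881 set supplied most of the 40 VCaP regions, since it held 46 high confidence ERG peaks and the vehicle set 15, so most of these regions were chosen by their R1881 peak. Of these regions 25 had an ERG MACS peak with both treatments, and the score was higher with R1881 in 20 (80%, interval 60.9 to 91.1%), where 74.8% of all autosomal regions of this kind were higher. A further 14 (35%) had an ERG MACS peak with R1881 and not with vehicle, where 26.8% of all did, and 1 the reverse, where 2.55% did. Each of these 3 values of all autosomes lay within the chromosome's interval. The strongest of the 14 ran from 46118524 to 46119718 (score 553.11) and from 52445534 to 52446063 (score 422.88), and the 1 seen with vehicle ran from 41351790 to 41352587 (score 196.96). No GABPα peak was called in these 3 regions in any sample.

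Over the 76 ERG regions of chromosome 19 called with both treatments, the median log2 ratio of scores (R1881 over vehicle) was 0.41, against 0.22 elsewhere, and 64.5% were higher with R1881 against 59.98% elsewhere. Over 688 GABPα regions the median was 0.00 on chromosome 19 and 0.00 elsewhere, and 48.4% and 48.2% were higher with R1881. From t0 to vehicle the GABPα median was 1.42 over 398 regions, against 1.58 elsewhere, and 93.7% of the shared GABPα regions on chromosome 19 scored higher with vehicle than at t0, against 94.85% elsewhere.

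In Jurkat cells the region from 15816129 to 15817061 led for ERG, with scores of 863.08 and 778.99 in the 2 replicates and GABPα scores of 308.31 and 270.76. The regions from 33192968 to 33193877 (276.72 and 395.51) and from 6188992 to 6189736 (231.85 and 261.56) had no GABPα peak in any sample. The region from 56452492 to 56454015 scored 223.78 and 384.49 for ERG and 56.94 and 66.5 for GABPα. None of these 4 regions had a peak of either factor in VCaP cells.

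The leading GABPα regions were occupied in both lines. The region from 19747285 to 19749171 scored 3194.74 with R1881 and 3141.79 with vehicle, 427.75 at t0, and 210.85 and 365.12 in Jurkat cells. The next ran from 10090525 to 10092007 (3131.29 with R1881, 364.61 and 398.88 in Jurkat cells), from 50885867 to 50888998 (3116.96, 205.57 and 1388.49) and from 2900329 to 2902397 (3100, 569.83 and 831.5). The last of these is 1 of 47 high confidence regions that tied at 3100 with R1881, and was taken for its position nearest the chromosome's start. Scores piled up at 3100 and only 3 regions scored above it, so the score does not separate most of the leading regions. All 4 had a high confidence GABPα peak in each of the 5 samples and no ERG peak in any.

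Ranked in Jurkat cells, the region from 60354786 to 60355948 scored 3130.7 and 3217.62 for GABPα in the replicates and 3100 with R1881, and that from 53450356 to 53451486 scored 3100 in all 5 GABPα samples. Neither had an ERG peak. The region from 53919677 to 53921144 scored 3100 in both replicates and had an ERG peak of 50.59 with R1881, just over the lowest score. The region from 60207670 to 60210110 also scored 3100 in both and had ERG scores of 51.46 and 88.69 in Jurkat cells.

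A single region of chromosome 19, from 52129970 to 52131126, had a MACS peak in 8 of the 10 samples. GABPα scored 241.31 at t0, 1307.21 with vehicle, 1849.78 with R1881, and 1862.57 and 1784.91 in Jurkat cells. ERG scored 52.22 at t0, 98.32 with vehicle and 393.66 with R1881 and had no peak in Jurkat cells. No region had a high confidence peak of both factors in both lines, as none had one of ERG in both lines. The share over all autosomes was not computed for regions with 8 samples or for regions with both factors in both lines. Neither count is therefore a result about chromosome 19.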

How the data were processed

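ChIP-seq peak lists of 10 samples were analysed, grouped by the sample labels. Per the labels and the study's methods, the authors aligned reads to hg18 with BWA 0.5.5 and filtered out duplicates and low-quality alignments. They ran MACS and SWEMBL on each ChIP sample and its input, with no pooling of replicates. The deposited MACS files give each interval and its score, 10 times the −log10 of the p-value. The deposited high confidence files give intervals found by both callers, and another column of 3 of them, with no stated meaning, was not used. The 6 input samples were not analysed here.

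Shares, densities and overlaps of at least 1 bp were computed with Python 3.11.15, numpy 2.4.6 and scipy 1.17.1, and simulated data were used to test the overlaps (compared with bedtools 2.31.1) and the permutation tests. Densities used 1 Mb bins that held a MACS peak in any sample, and bins at chromosome ends count as whole. A high confidence share needed at least 100 autosomal peaks. Wilson intervals are at 95%, and a count of 0 was taken to allow a share of up to 3 counts of the total. Shares were compared by exact permutation of labels over samples, within cell line or within factor, and chromosome 19 with the other autosomes by exact sign flips over samples, all two-sided, with Benjamini-Hochberg adjustment over 14 tests.

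The named regions are the 4 highest-scoring in each of 4 sets (both factors, in VCaP cells with R1881 and in both Jurkat replicates, ties taken in order of position), those with a MACS peak in at least 8 samples, the highest-scoring ERG regions of vehicle or R1881 alone, and the peaks beside the window. The named bins are the 3 fullest in each set. The members, rules and tests were chosen with earlier results of these data known. Alternatives were a minimum score of 100, the 1000 highest scores, whole MACS peaks, SWEMBL peaks, other bins or spans, the window kept, an overlap of 50%, the replicate block, and leaving out each sample. Taking each factor alone, bands of score and the counts of ERG regions over all autosomes were added after seeing the data. Sequences and gene positions were not used here, since no hg18 genome was given.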

Additional observations from a re-analysis of the deposited data

Results flagged for a closer look

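The difference between GABPα and ERG in the share of peaks on chromosome 19 passed its test in both kinds of peak, at 6.66 points for high confidence peaks and 3.03 points for MACS peaks (exact permutation p = 0.01667 for each). Paired by condition, the differences were 6.365 and 3.257 points (exact sign-flip permutation p = 0.125 over 4 pairs and 0.0625 over 5, the smallest possible), so neither passed. The difference between VCaP and Jurkat cells in the high confidence share also passed, at 2.20 points (exact permutation p = 0.01667). Factor and antibody, and cell line and culture, cannot be told apart in this design.

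SWEMBL intervals on chromosome 19 with no MACS peak entered only the alternatives that used SWEMBL peaks in place of high confidence peaks, and were more than the limit of 3 in 6 samples. For GABPα there were 5 with vehicle, 4 with R1881, and 176 and 151 in Jurkat replicates 1 and 2. For ERG there were 15 and 25 in Jurkat replicates 1 and 2. The ERG counts were 51.7% and 47.2% of the SWEMBL intervals on chromosome 19, against 9.39% and 17.2% elsewhere, while the GABPα counts in Jurkat cells were 23.82% and 21.03% against 23.6% and 17.6%. No control sample has a SWEMBL list among the files used here, and these intervals carry no score.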

How the results depend on the processing

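Leaving out 1 sample at a time gave ranges of 6.365 to 6.921 points for the GABPα and ERG difference in high confidence share and 2.908 to 3.205 points in MACS share. It gave 1.908 to 2.464 points for the line difference in high confidence share and 1.015 to 1.312 points in MACS share. The mean log2 density ratio ranged from 0.8732 to 1.285 for high confidence peaks and from -0.1769 to 0.1396 for MACS peaks. Retention, score, width and the gap ranged from 19.6 to 24.56 points, 0.7243 to 1.027, 0.3011 to 0.3545 and 1.903 to 2.823 points. Both high confidence share differences lost their call without any 1 VCaP GABPα sample, where the smallest possible p was 0.05556.

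As a replicate block, pairs of GABPα and ERG samples of the same condition gave 6.365 points for high confidence peaks (exact sign-flip permutation p = 0.125) and 3.257 points for MACS peaks (p = 0.0625), each the smallest that 4 or 5 pairs allow. In Jurkat cells, same-numbered samples share only a number (r = -0.05 between their deviations over 2718 bins). No paired analysis was possible between the cell lines because their samples share no pairing, and the gap is itself paired.

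The high confidence density ratio passed the test with the window kept (1.117, exact permutation p = 0.04688) and with SWEMBL peaks (1.235, p = 0.003906), and was -0.2718 for ERG alone. The MACS ratio, near 0, became 0.01006 with the window kept, 0.3669 at a minimum score of 100, 0.8202 for the 1000 highest scores and 1.018 for GABPα alone. The line difference in high confidence share was 1.632 with SWEMBL peaks (exact permutation p = 0.1). For GABPα alone, retention was 34.83 points, score 1.715 and width 0.4353, and for ERG alone 6.749 points, 0.1282 and 0.202, none past the threshold since 4 or 5 samples cannot reach it. With the 1000 highest scores, the overlap of ERG with GABPα was 0 in all 4 conditions, and 27.66% of GABPα peaks with R1881 were found in Jurkat replicate 1, against 55.91% in full sets and 50.54% at a minimum score of 100. These overlaps in reduced sets were computed on chromosome 19 alone, with no share over all autosomes beside them. In VCaP cells 43 bins leaned to GABPα by high confidence peaks. Sets under 1000 peaks were kept whole. The causes were not tested.

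Of 94 values under alternatives other than leaving out a sample, 72 were judged the same. For most values this meant keeping direction and side of the threshold, or staying within the interval. For counts of leaning bins it meant staying within a set fold of the main count. Unknown numbers of reads, 1 sample per VCaP treatment and 14 to 46 high confidence ERG peaks per sample limit the precision.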
